A study of Mus musculus with 5 samples.

Results

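The genes examined here are *Rlim*, which encodes the E3 ubiquitin ligase RNF12, its closest relative *Rnf6*, and *Ldb1*, *Ldb2* and *Terf1*, which encode proteins known as RNF12 substrates. They are 5 of the 21755 protein-coding genes on chromosomes 1 to 19 and X, and the rule that names them uses these roles and no measured value. Chromatin immunoprecipitation and sequencing (ChIP-seq) with V5 beads in mouse embryonic stem cells (mESCs) gave 3 lists of peaks, with 1 library each. The precipitated proteins were REX1, RNF12 WT and RNF12 with the changes H569A,C572A, called mutant RNF12 below. A peak was assigned to a gene when its summit, the position of highest signal, lay in the gene body or within 5 kb of it. By this rule 46 of the 291776 peaks belonged to the 5 genes: 14 of 96050 in the REX1 list, 16 of 97602 in the RNF12 WT list and 16 of 98124 in the mutant list.

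By the labels, all cells were female mESCs of the hybrid strain 129/Sv-Cast/Ei. The REX1 library came from cells labelled WT with FLAG-V5-REX1. Both RNF12 libraries came from Rlim+/- cells that carried a stably integrated vector with the pCAG promoter and a FLAG-V5-tagged *Rnf12* coding sequence, WT or with H569A,C572A, which change residues of the RING domain needed for catalysis. For the RNF12 experiments cells were treated with 15 μM of the proteasome inhibitor MG132 for 3 h and cross-linked with 2 mM disuccinimidyl glutarate and 1% formaldehyde, and chromatin was sheared to 300 to 800 nucleotides. These conditions are stated for RNF12 and not for REX1. Both RNF12 lines therefore lacked 1 copy of the gene *Rlim* and made the tagged protein from a foreign promoter, while the REX1 line is not labelled as lacking it, and the part of these differences in any result was not tested. The labels place V5-tagged REX1 in WT cells, and the paper refers REX1 occupancy to earlier work. Whether this library came from that work could not be settled. The lists give no number of reads, and the depth of the libraries is unknown.

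RNF12 marks proteins for degradation by attaching ubiquitin to them. REX1, the product of *Zfp42* and a zinc-finger protein of the YY1 family, is its best known substrate in mESCs, and loss of REX1 relieves repression of *Xist*, the RNA that silences 1 X chromosome in female cells. LDB1 and LDB2 are cofactors that join LIM-domain transcription factors into larger complexes, and RNF12 was named RLIM for its interaction with LIM-domain proteins. TERF1 binds the double-stranded repeats of telomeres as part of shelterin. RNF6 is a RING ligase with the same arrangement of domains as RNF12.

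With 1 library per list there are no replicates, so no test between lists was made. Each peak is described by its position and by the authors' fold enrichment over control, which is compared only within a list, as the percentile of the peak among all peaks of that list. In the REX1 list 5 of the 5 genes had a peak, against 79.0% of all protein-coding genes. In the RNF12 WT list 4 of the 5 genes had one, against 79.9%, and in the mutant RNF12 list 4 of the 5, against 81.3%. A summit within 1 kb of an annotated transcription start site (TSS) was found at *Rlim*, *Rnf6*, *Ldb1* and *Terf1* in each list, where the share of all genes was 67.5% for REX1, 68.9% for RNF12 WT and 67.7% for mutant RNF12. Some of these calls depended on weak peaks: the REX1 peak of *Rnf6* was lost at a −log10 q of at least 5, and among the 20000 peaks of highest −log10 q *Rlim* had 0 in both RNF12 lists, *Terf1* 0 in the mutant list, and *Rnf6* and *Ldb1* 0 in the REX1 list. With 5 genes, these counts do not set the genes apart from the rest of the genome.

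What differed between the genes was where they ranked and how many peaks they held. *Rlim* and *Terf1* promoter peaks stood at a higher percentile in the REX1 list than in the RNF12 WT list, and *Rnf6* and *Ldb1* promoter peaks at a higher percentile in the RNF12 WT list. *Ldb1* held 6 REX1, 11 RNF12 WT and 9 mutant RNF12 peaks. *Rlim* held 5, 3 and 2 peaks in the same order of lists, *Rnf6* 1, 1 and 2, *Terf1* 1, 1 and 3, and *Ldb2* 1, 0 and 0. The window mattered for the genes with few peaks. Within 10 kb *Rnf6* had 4, 4 and 4, and in the gene body alone *Rlim* had 2, 1 and 1, *Ldb1* 1, 10 and 8, and *Terf1* 1, 1 and 1. The median over all protein-coding genes, with 5 kb, was 3 for REX1, 3 for RNF12 WT and 2 for the mutant.

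**Figure D1:**
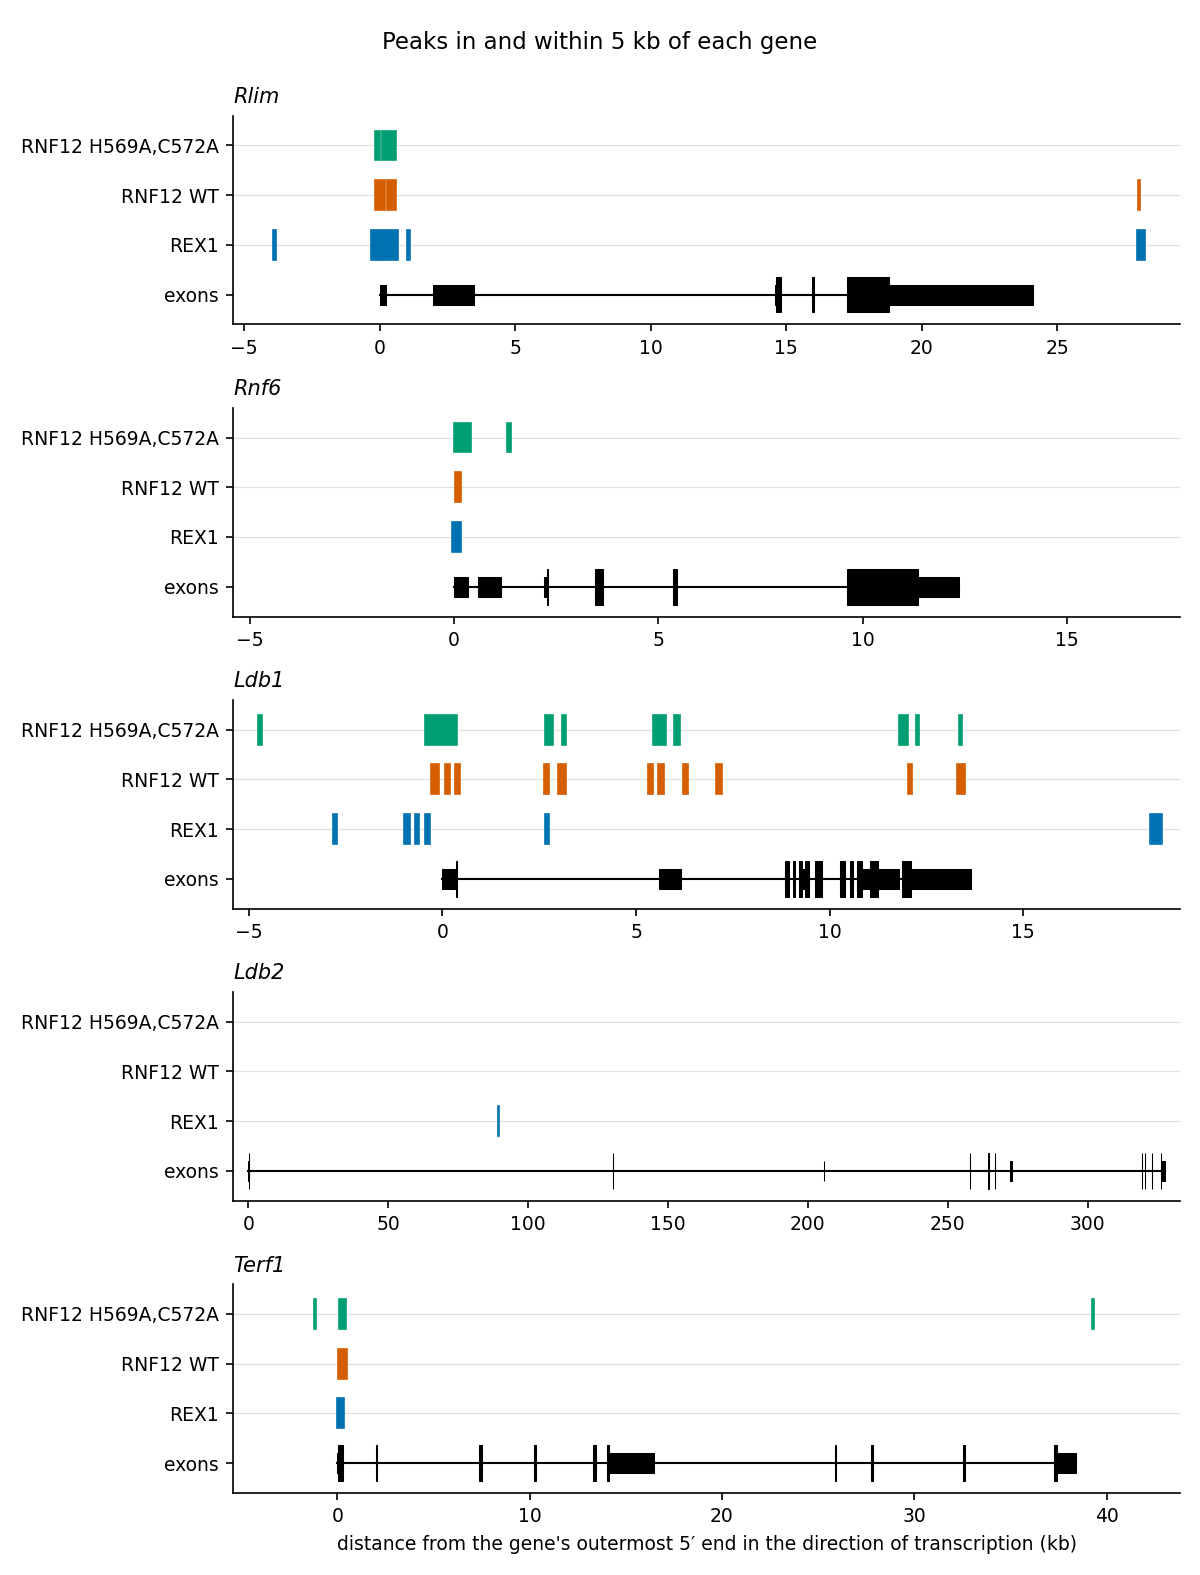
Peaks of the 3 lists along each gene, drawn in the direction of transcription, with the distance in kb from the outermost 5′ end of the gene on the horizontal axis and 1 row per list above the exons (tall boxes are coding). Each coloured box is 1 peak, outlined so that narrow peaks stay visible; peaks of all lists gather at the start of *Rlim*, *Rnf6*, *Ldb1* and *Terf1*, and *Ldb2* shows 1 REX1 peak.

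The gene *Rlim* lies on the minus strand at chrX:103957163-103981284 (GRCm38, the build called mm10), 473.909 kb from *Xist*. Its promoter had peaks in all 3 lists. The peaks there merged into 1 region of 981 bp, chrX:103980614-103981594, which reaches from upstream of the TSS into the first intron and held 2 peaks of each list. The REX1 pair had fold enrichments of 11.2, with its summit 162 bp upstream of the TSS, and 9.59, with its summit in exon 1. Both stood high in the list, at percentiles 97.8 and 96.3. The RNF12 WT pair had fold enrichments of 4.79 upstream and 4.59 in the first intron. By this measure they stood at percentiles 54.0 and 50.1, close to the middle of the list, and by −log10 q at 70.0 and 61.7. The mutant RNF12 pair had 4.57 upstream, at percentile 12.8, and 11.6 in exon 1, at percentile 80.1. Both RNF12 lines lacked 1 copy of *Rlim*, and the part of this in the RNF12 values at *Rlim* was not tested.

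The upstream summits of the 3 lists were close together. The RNF12 WT and mutant RNF12 summits were 5 bp apart, and the REX1 summit lay 33 bp and 38 bp from them. The sequence that holds all 3 is printed to show this shared point, chrX:103981388-103981466 on the minus strand, 79 bases with 67.1% G or C, with CpG dinucleotides in capitals. All sequences here are those of the reference genome, not of the hybrid cells.
Rlim upstream summits: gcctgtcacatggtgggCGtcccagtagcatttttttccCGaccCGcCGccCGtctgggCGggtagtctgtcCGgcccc

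A further REX1 peak, of fold enrichment 5.85, had its summit in the first intron, 1034 bp after the TSS, and another, of 4.87, lay 3895 bp upstream. Neither had a partner in the RNF12 lists. The peak with the highest percentile of all 46 lay beyond the other end of *Rlim*. Its REX1 summit, at chrX:103953233, was 3930 bp past the 3′ end of the gene, where fold enrichment reached 25.6 and −log10 q reached 93.4, which placed it at rank 71 of 96050 REX1 peaks. An RNF12 WT peak of 93 bp lay wholly inside it, at percentile 82.9 of its list and −log10 q 5.35, and its summit was 27 bp away. No mutant RNF12 peak was listed there. The nearest annotated TSS belonged to the pseudogene Gm9166, 26249 bp away, so the site is not at a known promoter.

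This downstream site was the only site of the 5 genes with one of the fixed motif strings. The strings AAGATGGC, ATGGCTGC and ATGGCGGC, which share the letters ATGGC of the motif bound by REX1 and YY1, were looked for on either strand in the 50 bp to each side of a summit. The stretch chrX:103953183-103953283, read on the minus strand like *Rlim* itself, is printed with the match in capitals.
Rlim downstream site: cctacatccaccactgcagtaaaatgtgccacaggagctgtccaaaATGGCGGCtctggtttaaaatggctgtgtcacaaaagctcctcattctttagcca
The match covers the REX1 summit and is also within the window of the RNF12 WT summit. ATGGCGGC was present at 1.72% of all REX1 peaks, 0.796% of RNF12 WT peaks and 0.760% of mutant RNF12 peaks. AAGATGGC, at 5.65% of REX1 peaks, and ATGGCTGC, at 4.30%, were at 0 of the 14 REX1 member summits. The longer motif that the study derived for RNF12, searched with at most 1 mismatch, was at 0 of 16 member summits in both RNF12 lists, where its share among all peaks was 4.48% for WT and 5.25% for H569A,C572A.

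Because both RNF12 lines carry an *Rnf12* coding sequence in a vector, coding bases of *Rlim* were counted apart. None of its 1800 coding bases lay under a peak in any of the 3 lists, and all exonic peaks of *Rlim* were in exon 1, which is not coding. *Rnf6* likewise had 0 of 2034 coding bases under peaks and *Ldb2* 0 of 1221. *Zfp42*, the gene of the tagged protein in the REX1 line, had 0 of 864. *Terf1* had 280 of 1263 coding bases under REX1 peaks, 278 under RNF12 WT peaks and 197 under mutant RNF12 peaks. *Ldb1* had 0, 95 and 172 of 1293. At least 1 coding base was thus covered in 1 of the 5 genes for REX1, against 51.2% of all genes, in 2 for RNF12 WT, against 55.2%, and in 2 for mutant RNF12, against 51.8%. Genes with no covered coding base, like *Rlim*, made up 48.8%, 44.8% and 48.2% of all genes in the same order of lists.

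*Rnf6*, on the minus strand at chr5:146209192-146221555, had 1 region in common to the 3 lists, chr5:146221130-146221594, at its outermost TSS. The fold enrichment there was 4.10 for REX1, 8.75 with RNF12 WT and 15.9 with mutant RNF12. Within their lists these peaks stood at percentile 36.3, at 98.5 (rank 1482 of 97602) and at 90.6 (rank 9221 of 98124). So the promoter of *Rnf6* was near the top of the RNF12 WT list and in the lower part of the REX1 list. The 3 summits lay within 45 bp of each other in a first exon, outside coding sequence, and those of the RNF12 lists were 11 bp apart. The 30 bases that hold both RNF12 summits, chr5:146221440-146221469 on the minus strand, are shown because they carry 6 CpG dinucleotides, in capitals.
Rnf6 exon 1 summits: cCGCGgctCGgcttcCGgggagCGcCGttt
Around the RNF12 WT summit, 74.3% of bases were G or C, against a median of 62.4% over all RNF12 WT peaks. The REX1 summit was also rich, with 71.3% against a median of 58.4% in its list, and the mutant RNF12 summit had 74.3% against 63.4%.

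*Ldb1* is a gene of 13.645 kb on the minus strand at chr19:46031570-46045214, and it had the most peaks of the 5 genes in each list. Many were weak. At a −log10 q of at least 5 its counts fell from 6, 11 and 9 to 2, 4 and 4 for REX1, RNF12 WT and mutant RNF12, and *Rlim*, with 5, then had more REX1 peaks; among the 20000 peaks of highest −log10 q in each list *Ldb1* kept 0, 2 and 1. Of all protein-coding genes, 7.91% had 11 or more RNF12 WT peaks, 7.17% had 9 or more mutant RNF12 peaks and 23.3% had 6 or more REX1 peaks. Its peaks fell into 17 regions, of which 2 were in all 3 lists and 3 in both RNF12 lists without REX1. A further 4 were in REX1 alone, 4 in RNF12 WT alone and 4 in mutant RNF12 alone. Alone means only without overlap, and some of these regions lay next to a peak of the other RNF12 list. For example, an RNF12 WT peak ended at chr19:46033183 and a mutant RNF12 peak began at chr19:46033189. The start of *Ldb1* overlaps that of *Pprc1*, a coactivator gene transcribed in the other direction from chr19:46044886, and 4 of the 6 REX1, 2 of the 11 RNF12 WT and 2 of the 9 mutant RNF12 summits also lay in an intron of it. Peaks there cannot be told apart as peaks of *Ldb1* or of *Pprc1*.

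The promoter region, chr19:46044751-46045675, was 925 bp long and was covered differently by the 3 proteins. RNF12 WT had 3 separate peaks, and the strongest, of fold enrichment 8.14 at percentile 97.4, had its summit 245 bp upstream of the outermost TSS. The other peaks of RNF12 WT there were weak by fold enrichment, with 2.67 and 3.83, at percentiles 3.13 and 26.3. By −log10 q they stood at 5.10 and 45.8. Mutant RNF12 had 1 peak of 840 bp that spanned most of the region, with a fold enrichment of 16.8, percentile 91.9 and its summit in exon 1. REX1 had a peak of 3.74 at percentile 24.4, or 45.5 by −log10 q, 404 bp upstream, at the far edge of the region. The bases around the RNF12 WT summit, chr19:46045409-46045509 on the minus strand, are printed because they hold 16 CpG dinucleotides, in capitals, against a median of 4 around all RNF12 WT summits.
Ldb1 upstream summit: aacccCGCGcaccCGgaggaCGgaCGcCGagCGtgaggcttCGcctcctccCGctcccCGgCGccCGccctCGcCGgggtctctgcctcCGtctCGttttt

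Inside *Ldb1*, the RNF12 lists also had peaks at the start of a transcript that begins within the gene. In the region chr19:46039431-46039767 the fold enrichment was 5.33 for RNF12 WT, at percentile 70.2, and 7.49 for mutant RNF12, at percentile 57.0. RNF12 WT alone had a neighbouring peak of 5.99, at percentile 82.1, which began at chr19:46039777, just past the end of that region. REX1 had none at this internal start. By fold enrichment, from 2.88 to 4.26, the 6 REX1 peaks at *Ldb1* were below the middle of their list, at percentiles from 4.76 to 42.6, but the highest of them stood at percentile 57.0 when ranked by −log10 q. The RNF12 peaks spread over nearly the whole range, from percentile 3.13 to 97.4 for WT and from 1.94 to 91.9 for H569A,C572A. The region in all 3 lists that is not the promoter, chr19:46042357-46042600 in an intron, was weak in each by fold enrichment. It stood at percentiles 4.76, 19.1 and 4.13 for REX1, RNF12 WT and mutant RNF12, and by −log10 q at 6.51, 43.6 and 5.25. Its summits lay within 49 bp.

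**Figure D2:**
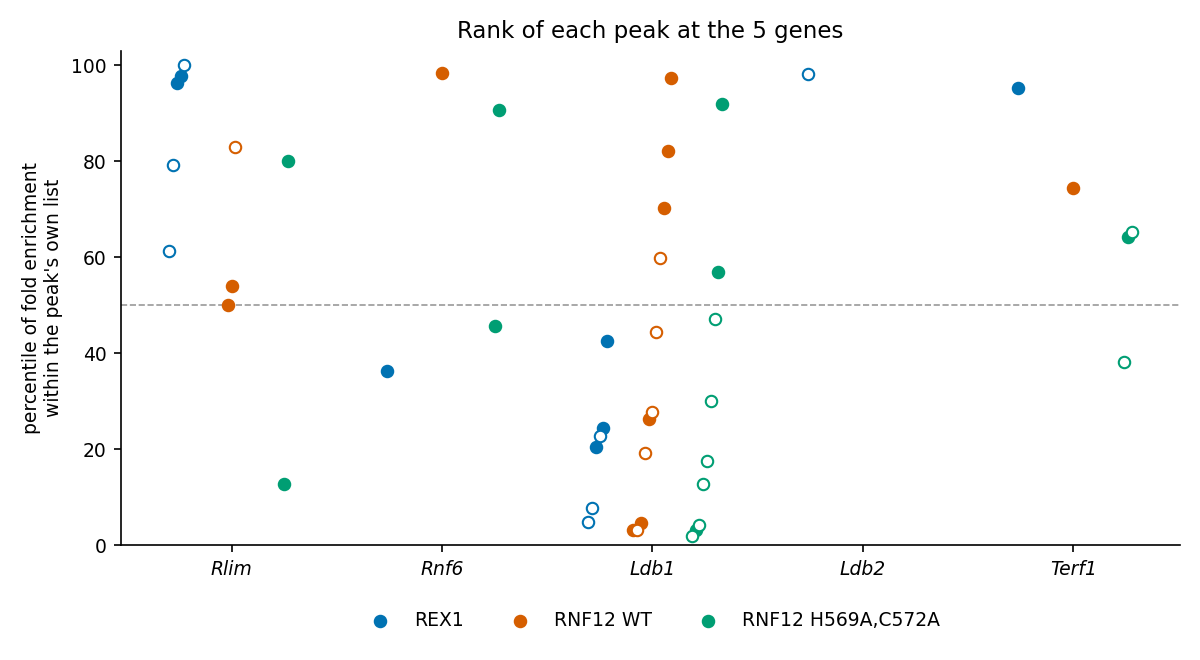
Percentile of the fold enrichment of each of the 46 peaks within its own list, by gene, with colours for the 3 lists. Filled points have their summit within 1 kb of a TSS of the gene, open points do not, and the dashed line is the middle of a list; by this measure the 6 REX1 points of *Ldb1* lie under it and the 5 of *Rlim* above it, while by −log10 q 1 point of each crosses it (*Ldb1* from 42.6 to 57.0, *Rlim* from 61.4 to 46.4).

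*Ldb2* is the paralogue of *Ldb1* and by far the longest of the 5 genes, with 327.549 kb on the minus strand at chr5:44472132-44799680. It had no peak in either RNF12 list and 1 peak in the REX1 list, in an intron. That peak, chr5:44710222-44710402, was strong, at rank 1665 of 96050, with a fold enrichment of 11.9 and 26.8 as −log10 q. Its summit was 89285 bp from the nearest TSS of *Ldb2* and 3427 bp from that of Gm3364, a non-coding transcript within the gene. The sequence around it, chr5:44710267-44710367 on the minus strand, is shown because it holds none of the motif strings and, with 1 CpG, differs from the promoter sequences above.
Ldb2 intron summit: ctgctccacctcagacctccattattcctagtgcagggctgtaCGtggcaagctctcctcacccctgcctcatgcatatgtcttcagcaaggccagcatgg

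So few peaks were uncommon among genes of this length. Among the 567 genes of at least 300 kb, the median number of summits was 8 for REX1, 8 for RNF12 WT and 9 for mutant RNF12. As few as *Ldb2* or fewer were found at 23 of them for REX1 (4.06%), 10 for RNF12 WT (1.76%) and 3 for mutant RNF12 (0.529%). The pattern of *Ldb2*, with a REX1 summit and none of either RNF12 protein, was seen at 416 of all genes (1.91%) and at 2 of those of at least 300 kb (0.353%). A missing peak in a list of unknown depth does not show that the protein is absent.

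**Figure D3:**
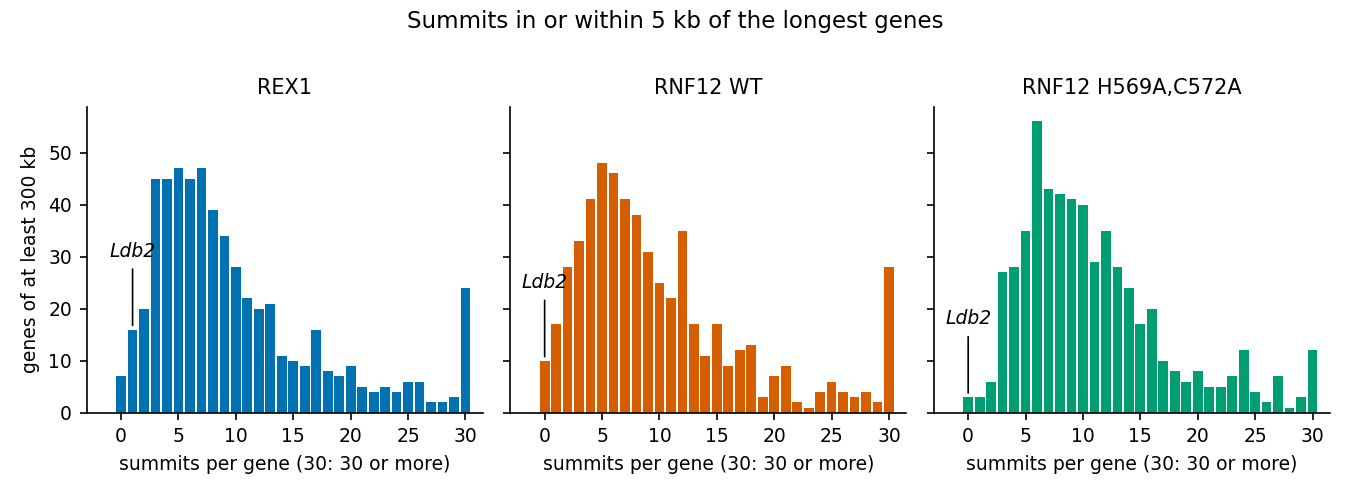
Number of summits in or within 5 kb of each of the 567 protein-coding genes of at least 300 kb (horizontal axis, with 30 or more in the last bar) against the number of genes (vertical axis), 1 panel per list. *Ldb2* is marked at 1, 0 and 0 summits, at the left end of each distribution.

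*Terf1*, on the plus strand at chr1:15805646-15844052, had a promoter peak in each list, merged into chr1:15805613-15806133, which reaches over coding bases of exon 1. The fold enrichment was 8.93 for REX1, at percentile 95.3, then 5.58 for RNF12 WT, at 74.4, and 8.32 for mutant RNF12, at 64.2. The REX1 peak thus stood higher in its list than either RNF12 peak did in its own. Their summits differed in position too. The REX1 summit was 32 bp after the TSS, and the RNF12 summits, 38 bp from each other, lay 184 bp and 222 bp downstream of it. The 30 bases at the REX1 summit (chr1:15805681-15805710) and at the RNF12 WT summit (chr1:15805865-15805894) are shown beside each other. They are on the plus strand, with 4 and 1 CpG dinucleotides in capitals. This contrast holds only for the printed bases. In the 50 bp to each side of the summits there were 13 CpG for REX1, 8 for RNF12 WT and 12 for mutant RNF12.
Terf1 REX1 summit: gCGgagaCGgtctcctcagCGgccCGggac
Terf1 RNF12 WT summit: gctggatgctCGacttcctctgcctgtctc

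To place the promoters among all genes, the strongest peak within 1 kb of a TSS was taken for each gene and ranked among the genes with such a peak. For REX1, 92.2% of these genes ranked at or below *Rlim* and 85.0% at or below *Terf1*, but 17.6% at or below *Ldb1* and 14.7% at or below *Rnf6*. For RNF12 WT the order was turned over, with 92.1% at or below *Rnf6*, 87.6% for *Ldb1*, 41.9% for *Terf1* and 23.5% for *Rlim*. For mutant RNF12, *Ldb1* (84.3%) and *Rnf6* (80.6%) were again above *Rlim* (50.5%) and *Terf1* (24.6%). The place of *Ldb1* rests on summits that also lie in *Pprc1*. Without those, its highest remaining promoter peak stood at percentile 82.1 for RNF12 WT, still above *Terf1* (74.4) and *Rlim* (54.0), but at 57.0 for mutant RNF12, below *Rlim* (80.1) and *Terf1* (64.2), and REX1 had none.

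How common such pairs of ranks are was counted over the 13204 genes with a promoter peak in all 3 lists, with limits chosen after these values were seen. An RNF12 WT peak above percentile 95 with a REX1 peak below percentile 45, as at *Rnf6* and *Ldb1*, was found at 322 genes (2.44%). A REX1 peak above percentile 95 with an RNF12 WT peak below percentile 75, as at *Rlim* and *Terf1*, was found at 601 (4.55%). *Terf1* was only just within these limits, and ranked by −log10 q each pair lost a gene: *Terf1* stood at percentile 92.4 for REX1 and 87.4 for RNF12 WT, and the highest REX1 promoter peak of *Ldb1* at 57.0. RefSeq promoters of 300 bases, which end 50 bases after a start (GRCm38.p6), were at hand for 3 of the 5 genes, *Rlim*, *Rnf6* and *Ldb1*. None of their 7 promoters held AAGATGGC, ATGGCTGC or ATGGCGGC, which were in 2.75%, 1.80% and 2.24% of 32851 promoters. The outermost *Ldb1* promoter had 71.3% G or C, at or above 92.6% of all promoters, while those of *Rnf6* and *Rlim* were alike, with 60.0%, at or above 71.4%, and 59.0%, at or above 68.9%.

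**Figure D4:**
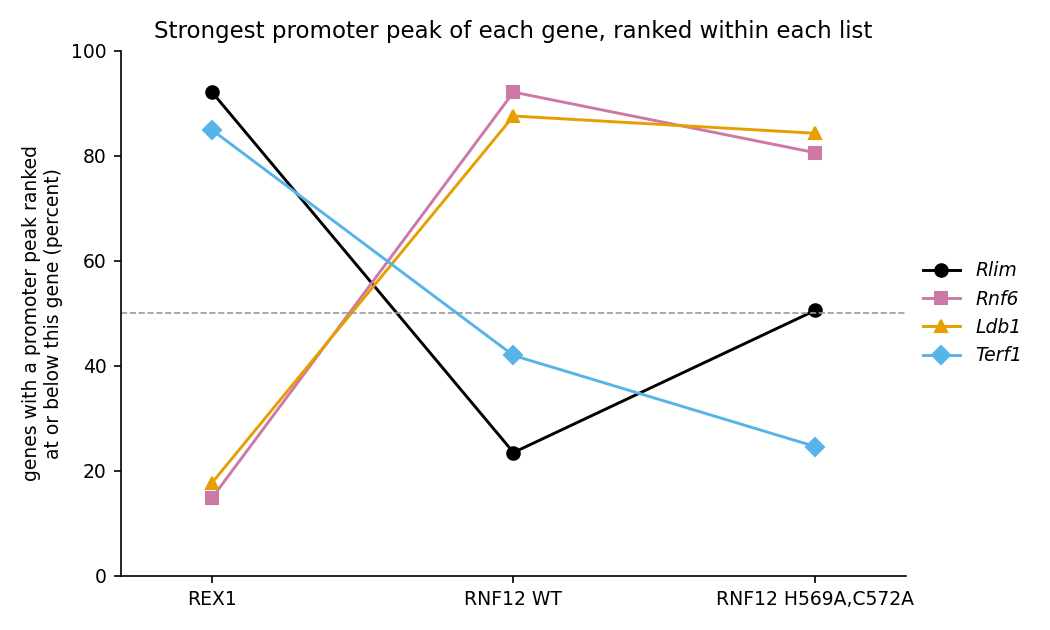
Rank of the strongest promoter peak of *Rlim*, *Rnf6*, *Ldb1* and *Terf1* in each list, as the percent of genes with a promoter peak that ranked at or below the gene (vertical axis); lines only join the values of a gene and the dashed line is the middle. *Rlim* and *Terf1* are high for REX1 and *Rnf6* and *Ldb1* are high in both RNF12 lists; *Ldb2* had no promoter peak and is not drawn.

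Shared sites were counted by overlap of at least 1 bp. Of the 16 RNF12 WT member peaks, 11 (68.8%, exact 95% binomial interval 41.3% to 89.0%) overlapped a mutant RNF12 peak, against 51.9% of all RNF12 WT peaks, and 6 (37.5%, 15.2% to 64.6%) overlapped a REX1 peak, against 41.2%. Of the 16 mutant RNF12 member peaks, 9 (56.2%, 29.9% to 80.2%) overlapped an RNF12 WT peak, against 42.6%, and 6 (37.5%, 15.2% to 64.6%) a REX1 peak, against 34.2%. Of the 14 REX1 member peaks, 6 (42.9%, 17.7% to 71.1%) overlapped an RNF12 WT peak, against 39.5%, and 6 (42.9%, 17.7% to 71.1%) a mutant RNF12 peak, against 40.7%. Every interval includes the share of all peaks, but this is no test, because the intervals take the peaks as independent. At *Ldb1*, 3 RNF12 WT peaks overlapped the same mutant RNF12 peak. *Ldb1* supplied 11 of the 16 RNF12 WT peaks and set much of these shares. Without it, 5 of 5 RNF12 WT peaks overlapped a REX1 peak and 4 of 5 a mutant RNF12 peak. For mutant RNF12, 4 of 7 overlapped a REX1 peak and 4 of 7 an RNF12 WT peak, and for REX1, 5 of 8 overlapped an RNF12 WT peak and 4 of 8 a mutant RNF12 peak. The intervals cover counting error only, and peaks of 1 gene are not independent.

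Merged across lists, the peaks formed 27 regions, and 5 of these were in all 3 lists: the promoters of *Rlim*, *Rnf6*, *Ldb1* and *Terf1* and the weak *Ldb1* intron region. A further 4 were in 2 lists and 18 in only 1, of which 7 were in REX1, 4 in RNF12 WT and 7 in mutant RNF12. Merged in the same way, the whole lists formed 187564 regions. Of these called regions, 13.0% were in all 3 lists, 15.6% in 2 and 71.4% in only 1, so the 5 genes were not unusual in this. The paper states that overlap of called peaks depends strongly on the calling thresholds. By a quantitative comparison of signal at peaks, it found RNF12 WT, mutant RNF12 and REX1 largely at shared sites. The 4 regions of RNF12 WT alone were all at *Ldb1*. Of the 7 of mutant RNF12 alone, 3 were at *Ldb1* in sequence that occurs once in the genome. The other 4 were at summits whose 32 bases occur many times: in an *Rnf6* intron (9380 copies), upstream of *Ldb1* (17 copies), upstream of *Terf1* (208 copies) and downstream of *Terf1* (29059 copies). All 14 REX1 and all 16 RNF12 WT summits had 32 bases that occur once. In the whole lists such repeated summits made up 51.4% for mutant RNF12, 15.8% for RNF12 WT and 15.2% for REX1, so 4 of 16 mutant RNF12 peaks is a smaller share than in its list.

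The words at the summits with the most copies are printed to show that they are the same repeat. They are chr5:146220204-146220235 on the minus strand at *Rnf6* and chr1:15844924-15844955 on the plus strand at *Terf1*, with CpG in capitals.
Rnf6 intron repeat: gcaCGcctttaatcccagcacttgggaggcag
Terf1 downstream repeat: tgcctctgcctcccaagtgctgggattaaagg
Read on opposite strands they share a run of 27 bases. Soft-masked bases, which mark repeats in the reference, were in the summit windows of 8 of the 16 mutant RNF12 peaks, against 60.9% of its whole list. They were in 6 of 16 for RNF12 WT, against 34.2%, and in 3 of 14 for REX1, against 37.9%. Without the 4 peaks at repeated summits, mutant RNF12 had 12 peaks at the same 4 genes, and the second *Rnf6* peak and 2 of the 3 *Terf1* peaks were gone. The part of the repeats in these differences between the RNF12 lists was not tested.

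The partners of these proteins were listed by function. Of the 16 LIM-domain partners of LDB proteins, 15 had a summit within 1 kb of a TSS in all 3 lists, namely *Isl1*, *Isl2*, *Lhx1*, *Lhx2*, *Lhx3*, *Lhx4*, *Lhx5*, *Lhx6*, *Lhx8*, *Lhx9*, *Lmo1*, *Lmo2*, *Lmo4*, *Lmx1a* and *Lmx1b*, and *Lmo3* had one in none. The 3 SSBP genes, *Ssbp2*, *Ssbp3* and *Ssbp4*, whose products stabilise LDB1, had one in all 3 lists, and so had the 7 shelterin genes, *Acd*, *Pot1a*, *Pot1b*, *Terf1*, *Terf2*, *Terf2ip* and *Tinf2*. Of 3 further substrates of RNF12, *Smad7* and *Smurf2*, both in TGF-β signalling, had one in all 3 lists, while *Zfp42* had one in the REX1 and mutant RNF12 lists. Over all protein-coding genes 60.7% had a promoter summit in all 3 lists and 25.1% in none. *Ldb2* is thus in the second class, unlike *Ldb1* and nearly all the genes of LIM-domain partners.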

How the data were processed

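Peaks of V5 ChIP-seq in mESCs were analysed, with 1 library each for REX1, RNF12 WT and mutant RNF12 (H569A,C572A). The authors trimmed reads (Trim Galore 0.6.7), aligned them (Bowtie2 2.5.0) to mm10 masked at strain differences, used SNPsplit to separate alleles, joined these again (SAMtools 1.10) and called peaks with MACS2 2.2.7.1 in narrow mode. The deposited values are a fold enrichment, which is a ratio to control, and −log10 p and −log10 q; the deposited score was not used. The labels name 2 input libraries, titled for REX1 and for RNF12, from WT cells; they were not analysed here, how they entered each peak call is not stated, and depth is unknown.

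Positions are 1-based. Genes came from GENCODE M21, sequence from GRCm38 and promoters from RefSeq. Percentiles rank fold enrichment within a list. The text names the 5 member genes, the genes of nearest TSSs, *Zfp42*, and, of the other lists, genes with a promoter summit in all 3 lists or in none; *Pprc1* and *Xist* mark position. Members, lists and limits were chosen with earlier results of these data known. Counting steps were tested on simulated data. Software was Python 3.11.15 with scipy 1.17.1, pandas 2.3.3, numpy 2.4.6 and matplotlib 3.10.9.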

Additional observations from a re-analysis of the deposited data

How the results depend on the processing

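Total numbers of peaks over the 5 genes depended most on the limit set on them. At single genes, as at *Rlim* and *Rnf6*, the window also changed the counts, as given above. At a −log10 q of at least 5, the 5 genes kept 9 REX1, 9 RNF12 WT and 10 mutant RNF12 peaks, and among the 20000 peaks of highest −log10 q in each list they held 5, 4 and 2, at 3 genes for REX1 and 2 for mutant RNF12. In gene bodies alone there were 6 REX1 peaks. With an overlap of 50% of both peaks, the share of RNF12 WT member peaks with a mutant RNF12 partner was 18.8%. The share of mutant RNF12 peaks with an RNF12 WT partner was also 18.8%. At this setting 18.8% of the member peaks of each RNF12 list had a REX1 partner. Of the REX1 member peaks, 21.4% had an RNF12 WT partner and 21.4% a mutant RNF12 partner. The absence of coding bases of *Rlim* under peaks and the number of peaks at *Ldb2* did not change in the alternatives run. Ranked by −log10 q, 32 of the 46 peaks moved by at most 10 percentile points and 42 stayed on the same side of the middle. Leaving out repeated summits gave 12 mutant RNF12 peaks, and leaving out *Ldb1* summits in *Pprc1* gave 10 REX1, 14 RNF12 WT and 14 mutant RNF12 peaks; both were chosen after seeing the data. No paired analysis was possible because each list is 1 library. With unknown depth, a site missing from a list may be too weak to be called.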
